A study of Homo sapiens with 3 samples.

Results

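The mitochondrial genome encodes 37 genes, of which 13 code for subunits of the respiratory chain, 22 for tRNAs and 2 for rRNAs. Their RNAs were examined in THP-1, an established monocytic leukemia line of human origin that is positive for MLL-AF9. Members were taken by identity and not by their values, with earlier results of these data known, as the rows under 13 protein accessions and the transcript rows whose gene name begins with MT-. Of the 37 genes, 25 were analysed here among 213543 features in all. These are 1 coding gene, MT-ND4 under accession P03905, together with both rRNAs and all 22 tRNAs. The other 12 coding genes were not analysed here. They are MT-ND1 (P03886), MT-ND2 (P03891), MT-ND3 (P03897), MT-ND4L (P03901), MT-ND5 (P03915), MT-ND6 (P03923), MT-CYB (P00156), MT-CO1 (P00395), MT-CO2 (P00403), MT-CO3 (P00414), MT-ATP6 (P00846) and MT-ATP8 (P03928). The coding class is therefore represented by MT-ND4 alone, and nothing below speaks for the others.

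Untreated THP-1 cells (labelled Control, 0 h) were compared with cells given 0.2 µM GSK-LSD1, an inhibitor of the histone demethylase LSD1, for 8 h or 24 h. Each time point was 1 library, prepared from rRNA-depleted total RNA, and its values are raw counts per feature. Differences between time points therefore have no replicate check, no p-value was computed, and each difference compares libraries and not conditions. Counts summed to between 1310912 (8 h) and 1475938 (0 h) per library. Levels are given as CPM, counts scaled to a common library size, after normalization by TMM, a method that sets library sizes so that most features do not change. Intervals in brackets are 95% intervals and cover counting error alone, because each time point was 1 library. The authors' methods mention no molecular identifiers, so repeated reads of 1 molecule may have been counted apart. The intervals may thus be too narrow even for counting error. In bulk RNA, fewer mitochondria or cells and less RNA per mitochondrion cannot be told apart. Of 10 markers fixed for THP-1 cells, CD33 and PTPRC had a row with 10 counts or more under their gene name, and both rows are transcripts not annotated as coding, so the cell type label was not checked here.

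Human mitochondrial DNA is a small circle transcribed from both strands into long precursors. Genes on the heavy-strand transcript, which include both rRNAs, MT-ND4 and most tRNAs, lie end to end with few or no bases between them, and the excision of the tRNAs releases the mRNAs and rRNAs. The mRNAs encode core subunits of the respiratory chain complexes, whose remaining subunits are encoded in the nucleus and imported. The rRNAs MT-RNR1 (12S) and MT-RNR2 (16S) form the core of the mitochondrial ribosome, and the 22 tRNAs serve translation inside the organelle alone.

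The sequences below show how closely the genes abut, because the counts of neighbouring genes differed widely. All are from the hg38 mitochondrial chromosome, written 5′ to 3′ on the strand of the gene. In the first, at chrM:10730-10796 on the forward strand, capitals mark the 7 bases shared by the end of MT-ND4L and the start of MT-ND4. In the others, capitals mark a tRNA gene and lower case the 30 bases on each side. MT-TH (chrM:12108-12236), MT-TG (chrM:9961-10088) and MT-TV (chrM:1572-1700) are tRNA genes that touch a coding or rRNA gene and had counts of 0 or 1. MT-TF (chrM:547-677), MT-TW (chrM:5482-5609), MT-TT (chrM:15858-15983) and, on the reverse strand, MT-TP (chrM:15926-16053) held most of the tRNA counts. MT-TF, MT-TW and MT-TT also touch such a gene, namely MT-RNR1, MT-ND2 and MT-CYB. These tRNA genes are shown for their counts, and the part of contact with a neighbour was not tested.
MT-ND4L and MT-ND4: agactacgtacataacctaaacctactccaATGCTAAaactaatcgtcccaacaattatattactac
MT-TH: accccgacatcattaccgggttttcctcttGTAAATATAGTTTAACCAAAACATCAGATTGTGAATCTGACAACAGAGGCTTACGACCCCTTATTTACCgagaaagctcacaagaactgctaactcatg
MT-TG: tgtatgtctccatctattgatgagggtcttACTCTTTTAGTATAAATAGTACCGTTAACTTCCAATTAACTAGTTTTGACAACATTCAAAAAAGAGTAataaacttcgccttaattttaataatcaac
MT-TV: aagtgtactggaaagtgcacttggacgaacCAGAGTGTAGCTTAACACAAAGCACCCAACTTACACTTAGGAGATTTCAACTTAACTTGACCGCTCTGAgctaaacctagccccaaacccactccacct
MT-TF: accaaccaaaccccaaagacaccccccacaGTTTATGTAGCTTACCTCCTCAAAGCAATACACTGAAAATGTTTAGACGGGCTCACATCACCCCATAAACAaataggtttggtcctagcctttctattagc
MT-TW: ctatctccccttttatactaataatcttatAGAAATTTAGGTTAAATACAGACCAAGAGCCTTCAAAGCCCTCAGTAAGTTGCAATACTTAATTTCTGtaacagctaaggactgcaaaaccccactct
MT-TT: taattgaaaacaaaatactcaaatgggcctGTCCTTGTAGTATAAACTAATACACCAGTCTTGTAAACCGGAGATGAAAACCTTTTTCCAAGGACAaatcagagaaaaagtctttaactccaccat
MT-TP: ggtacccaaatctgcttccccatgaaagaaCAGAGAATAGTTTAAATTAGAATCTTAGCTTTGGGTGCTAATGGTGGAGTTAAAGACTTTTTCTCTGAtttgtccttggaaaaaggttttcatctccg

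MT-ND4 encodes a core membrane subunit of complex I, the NADH dehydrogenase that passes electrons to ubiquinone and pumps protons. Its gene lies at chrM:10760-12137 on the forward strand, as 1 exon of 1378 bases. It had 20293 counts in the untreated library, 18898 in the 8 h library and 23203 in the 24 h library, the highest count of any feature in each. The next highest feature had 18071, 18841 and 21761 counts. MT-ND4 thus took 1.37% of all untreated counts (1.36% to 1.39%, Wilson), then 1.44% after 8 h (1.42% to 1.46%) and finally 1.61% after 24 h (1.59% to 1.63%).

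In scaled units, MT-ND4 stood at 13209 CPM at 0 h, 14759 CPM at 8 h and 16337 CPM at 24 h. The 3 libraries were thus ordered 0 h, 8 h, 24 h, and the counting intervals of all 3 pairwise ratios lay above 0. The log2 ratio was 0.16 at 8 h against 0 h (exact interval 0.13 to 0.19), 0.31 at 24 h against 0 h (0.28 to 0.33) and 0.15 at 24 h against 8 h (0.12 to 0.17). These are differences of 1.12-fold, 1.24-fold and 1.11-fold. Among the 9609 features that reached 10 counts in any library, 63.7% had a lower log2 ratio at 8 h against 0 h and 71.2% a lower one at 24 h against 0 h, while the medians over these features were -0.01 and -0.01. MT-ND4 therefore moved little and lay within the bulk of features. The size of the difference depended on the scaling: with total counts in place of TMM, the log2 ratios were 0.068 at 8 h and 0.22 at 24 h.

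The rRNAs differed between the libraries far more. MT-RNR1, the 12S rRNA of the small ribosomal subunit (chrM:648-1601, forward strand), had 712 counts before treatment, 3 after 8 h and 271 after 24 h. MT-RNR2, the 16S rRNA of the large subunit (chrM:1671-3229, forward strand), had 1661, 9 and 743. Both were thus low in the 8 h library, highest at 0 h and intermediate at 24 h. MT-RNR2 ranked 83rd by count among all features at 0 h, 7703rd at 8 h and 313th at 24 h.

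At 8 h against 0 h the log2 ratio was -7.63 for MT-RNR1 (-9.91 to -6.07) and -7.27 for MT-RNR2 (-8.40 to -6.34). Together the rRNAs were 165-fold lower at 8 h. At 24 h against 0 h the log2 ratios were -1.28 (-1.49 to -1.08) and -1.05 (-1.17 to -0.92), and together the rRNAs were 2.16-fold lower. From 8 h to 24 h they were 76.2-fold higher (43.4 to 148). The order of time was therefore not followed, since the level at 24 h lay between those at 0 h and 8 h. Removal of ribosomal RNA during library preparation acts on these RNAs, and its part in the difference was not tested. The 47 rows annotated as cytoplasmic rRNA held 1, 1 and 0 counts in the libraries of 0 h, 8 h and 24 h. How reads of repeated genes were counted is not given in the sources used here, so these counts do not measure the removal. With 1 library a time point the treatment, the time and the library preparation cannot be told apart.

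The proportion of the rRNAs to each other varied less. MT-RNR2 had 2.33 counts for each count of MT-RNR1 at 0 h, 3 at 8 h and 2.74 at 24 h. The log2 change of this ratio from 0 h to 24 h was 0.23, with an exact interval of -0.01 to 0.48 that includes 0. Per base of annotated length, the level of MT-RNR2 was 1.43-fold that of MT-RNR1 at 0 h (1.31 to 1.56) and 1.68-fold at 24 h (1.46 to 1.94), and at 8 h, with 9 and 3 counts, the ratio was too imprecise to read.

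**Figure D1:**
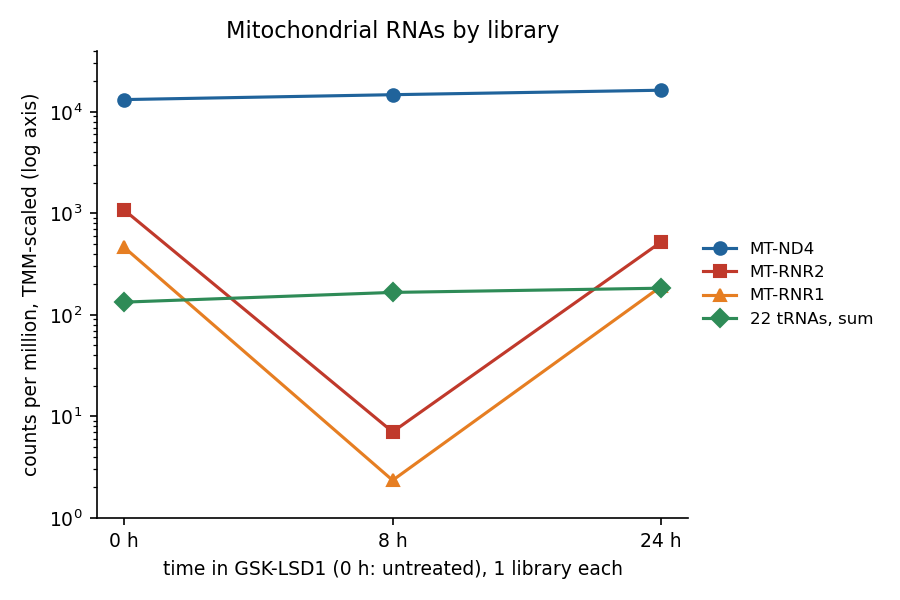
CPM, counts scaled by TMM to a common library size (log axis), of MT-ND4, both rRNAs and the summed tRNAs in the 1 library of each time point; lines join points of the same RNA. MT-ND4 lies between 13209 and 16337 CPM, while MT-RNR2 goes from 1081 CPM at 0 h to 7.03 at 8 h and 523 at 24 h.

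The 22 tRNAs together had few counts, namely 205 before treatment, 213 after 8 h and 260 after 24 h. These were 0.0139%, 0.0162% and 0.0180% of the counts. Their summed level was 133 CPM, 166 CPM and 183 CPM in that order. The log2 ratio of the sum was 0.32 at 8 h against 0 h (0.03 to 0.60) and 0.46 at 24 h against 0 h (0.19 to 0.73). Between 8 h and 24 h it was 0.14, with an interval of -0.13 to 0.41 that includes 0. The summed tRNAs, like MT-ND4, were therefore somewhat higher in both treated libraries, without the low value of the rRNAs at 8 h. The excess at 8 h depended on the scaling and on the genes summed. With total counts in place of TMM its interval (-0.06 to 0.51) includes 0. It also does so without MT-TT (-0.14 to 0.67) and without the 3 tRNAs next to an rRNA gene (-0.04 to 0.58).

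MT-TT, the threonine tRNA at chrM:15888-15953 after MT-CYB, held the largest number, with 99 counts in the untreated library, 107 in the 8 h library and 115 in the 24 h library. This was 48.3% of the tRNA counts at 0 h (41.5% to 55.1%), 50.2% at 8 h and 44.2% at 24 h. MT-TF, the phenylalanine tRNA at chrM:577-647 that precedes MT-RNR1, had 25, 29 and 37 counts. MT-TW, the tryptophan tRNA at chrM:5512-5579, had 21, 19 and 34. MT-TP, the proline tRNA at chrM:15956-16023 on the reverse strand, had 26, 17 and 23. All 4 of these tRNAs were counted in each library, with MT-TT above the other 3 throughout.

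MT-TI, the isoleucine tRNA, had 8, 11 and 13 counts in order of time, and MT-TQ, the glutamine tRNA, had 5, 10 and 6. These genes lie on opposite strands and share 3 bases (chrM:4329-4331), and whether counting used the strand is not given in the sources used here, so that their reads cannot be told apart there. The remaining 16 tRNAs had at most 9 counts in any library. Of these, MT-TL1 (leucine, between MT-RNR2 and MT-ND1) had 2, 4 and 9, MT-TS1 (serine) 6, 6 and 7 and MT-TE (glutamate) 5, 3 and 7. MT-TM, MT-TA, MT-TN, MT-TC, MT-TY, MT-TD and MT-TV had between 0 and 3 counts in each library.

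MT-TK, MT-TG, MT-TR, MT-TH, MT-TS2 and MT-TL2 were at 0 in all 3 libraries. These 6 genes, for lysine, glycine, arginine, histidine, serine and leucine tRNAs, all lie between MT-CO2 and MT-ND5. A count of 0 allows up to 3 counts per library, or 1.95 CPM at 0 h, 2.34 at 8 h and 2.11 at 24 h. MT-TH begins at the base after the end of MT-ND4, as the sequence above shows, and MT-ND4 had 18898 counts or more in each library. The libraries were made from RNA fragments of about 300 bases, longer than any tRNA gene, and how reads shared by adjoining features were counted is not given in the sources used here. The part of either in the zeros was not tested.

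**Figure D2:**
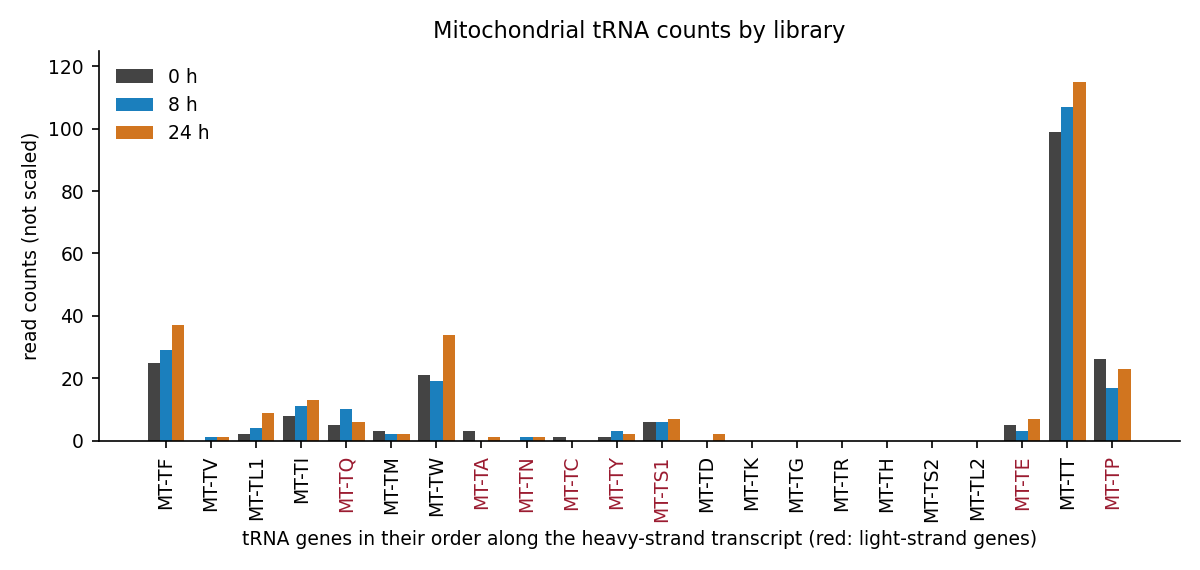
Raw counts of the 22 tRNAs in each library (bars, 1 library per time point), in their order along the genome, with light-strand genes in red. MT-TT reaches 99 to 115 counts, MT-TF 25 to 37 and MT-TW 19 to 34, and 6 adjacent tRNAs from MT-TK to MT-TL2 stand at 0.

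Most tRNA counts stood in 3 of the heavy-strand genes. A grouping made after the counts were seen, and given without a test, divided the 14 heavy-strand tRNAs by their distance to the nearest coding or rRNA gene of the same strand on each side. In 11 of them such genes lie within 139 bases on both sides. These 11 held 13 counts before treatment, 18 after 8 h and 27 after 24 h. The other 3, MT-TF, MT-TW and MT-TT, adjoin such a gene on 1 side and have at least 324 bases free of one on the other. They held 145, 155 and 186 counts, which is 70.7%, 72.8% and 71.5% of all tRNA counts. Distance did not order the counts within the 11, since MT-TL1, with at most 2 bases to either neighbour, had 15 counts in the 3 libraries together, while MT-TH and MT-TL2, with up to 130 and 128 bases, had 0. The 8 light-strand tRNAs have at least 8257 bases free of a coding gene of their own strand on 1 side. They held 47, 40 and 47 counts in all, of which MT-TP had 26, 17 and 23. These distances regard genes of the same strand alone, and whether counting used the strand is not given in the sources used here. MT-TS1, for example, begins at the base after the end of MT-CO1, a gene of the other strand.

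**Figure D3:**
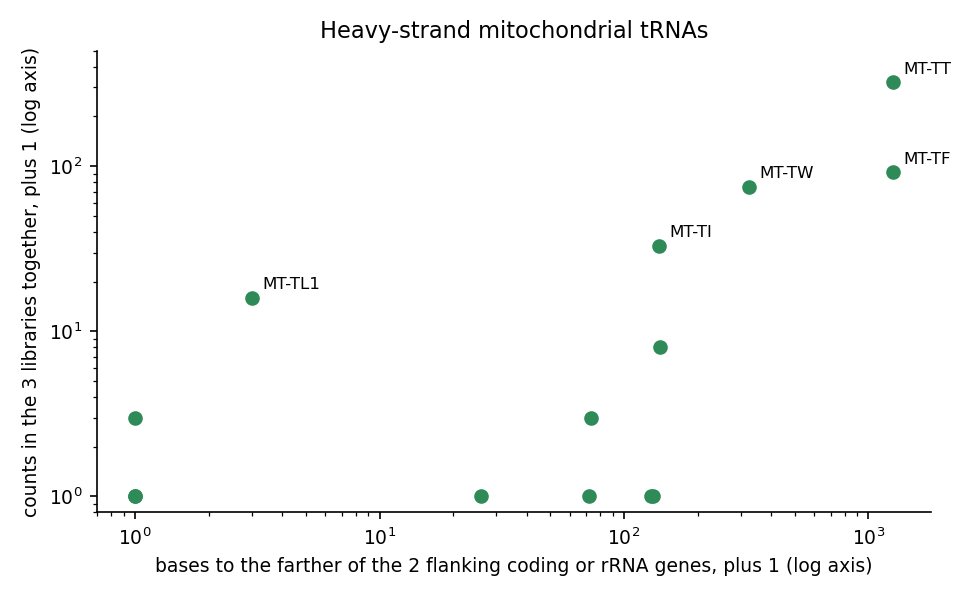
Counts of each heavy-strand tRNA in the 3 libraries together, plus 1, against the distance in bases to the farther of its 2 flanking coding or rRNA genes, plus 1 (both axes log; 1 point per gene, with MT-TG and MT-TR on the same point). MT-TT (321 counts), MT-TF (91) and MT-TW (74) lie farthest to the right and highest.

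MT-TF, next to MT-RNR1, was not low in the 8 h library. MT-TF, MT-TV and MT-TL1, which flank the rRNA genes, together had 27 counts before treatment, 34 after 8 h and 47 after 24 h. Their log2 ratio after 8 h was 0.60 (-0.18 to 1.38), against -7.36 (-8.32 to -6.56) for the rRNAs between them. MT-TF, which ends at the base before MT-RNR1 begins, had a log2 ratio of 0.48 (-0.35 to 1.31) at 8 h. The sum rests on MT-TF, which had 25 of the 27 counts before treatment, while MT-TV (0 and 1 counts at 0 h and 8 h) and MT-TL1 (2 and 4) had too few to show a fall.

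Ratios between classes within a library need no scaling between libraries. MT-ND4 had 99.0 counts for each tRNA count at 0 h, 88.7 at 8 h and 89.2 at 24 h. The log2 change of this ratio was -0.16 at 8 h (-0.44 to 0.13) and -0.15 at 24 h (-0.42 to 0.12), so that a difference between MT-ND4 and the tRNAs was not detectable at this depth. MT-ND4 had 8.55 counts for each rRNA count at 0 h, 1575 at 8 h and 22.9 at 24 h. The log2 change was 7.52 at 8 h (6.72 to 8.48) and 1.42 at 24 h (1.31 to 1.53), and for the tRNAs over the rRNAs it was 7.68 (6.81 to 8.68) and 1.57 (1.28 to 1.86).

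As a share of the 25 genes, rRNA made up 10.4% of untreated counts (9.99% to 10.8%), then 0.0628% after 8 h (0.0359% to 0.110%) and finally 4.14% after 24 h (3.90% to 4.40%). MT-ND4 made up 88.7%, 98.8% and 94.8%. The tRNAs made up 0.896%, 1.11% and 1.06%. Per base of annotated length, the level of MT-ND4 was 13.8-fold that of MT-RNR2 at 0 h (13.1 to 14.5) and 35.3-fold at 24 h (32.8 to 38.1). Against MT-TT it was 9.82-fold untreated (8.06 to 12.1), 8.46-fold after 8 h (6.996 to 10.3) and 9.66-fold after 24 h (8.05 to 11.7), and these intervals overlap.

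Of the 25 genes, 9 passed the filter of 10 counts in any library. They are MT-ND4, both rRNAs, MT-TT, MT-TF, MT-TP, MT-TW, MT-TI and MT-TQ. A feature was called where its log2 ratio lay past 1 in either direction. At 8 h against 0 h, 2 of the 9 were lower, both rRNAs, where 8.4% of all 9609 features were lower, and 1 was higher, MT-TQ, where 5.91% were higher. The interval of MT-TQ, on 5 and 10 counts, was -0.42 to 3.16 and includes 0. MT-TQ passed the filter through the 8 h library alone, so the filter itself favoured a higher value there. At 24 h against 0 h, the 2 rRNAs were lower, where 7.71% of all features were, and 0 were higher, where 8.11% were. At 24 h against 8 h, the 2 rRNAs were higher, where 5.55% were, and 0 were lower, where 3.16% were. For MT-RNR2 at 24 h against 0 h the interval reaches across the threshold.

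As a description, the 6 tRNAs that passed the filter had median log2 ratios against 0 h of 0.43 after 8 h and 0.53 after 24 h, beside medians of -0.01 and -0.01 over all features tested. Of the 6, 5 were above 0 at each time, with MT-TP below 0 at -0.35 and -0.06. The filter favours such values, since MT-TQ (5, 10 and 6 counts) and MT-TI (8, 11 and 13) reached 10 counts in treated libraries alone. For MT-TF, MT-TW and MT-TT the log2 ratios were 0.48, 0.12 and 0.37 after 8 h. After 24 h they were 0.68, 0.81 and 0.33. For none of the 6 did the counting interval lie off 0 at either time, so the difference of the sum was not resolved for any single tRNA.

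**Figure D4:**
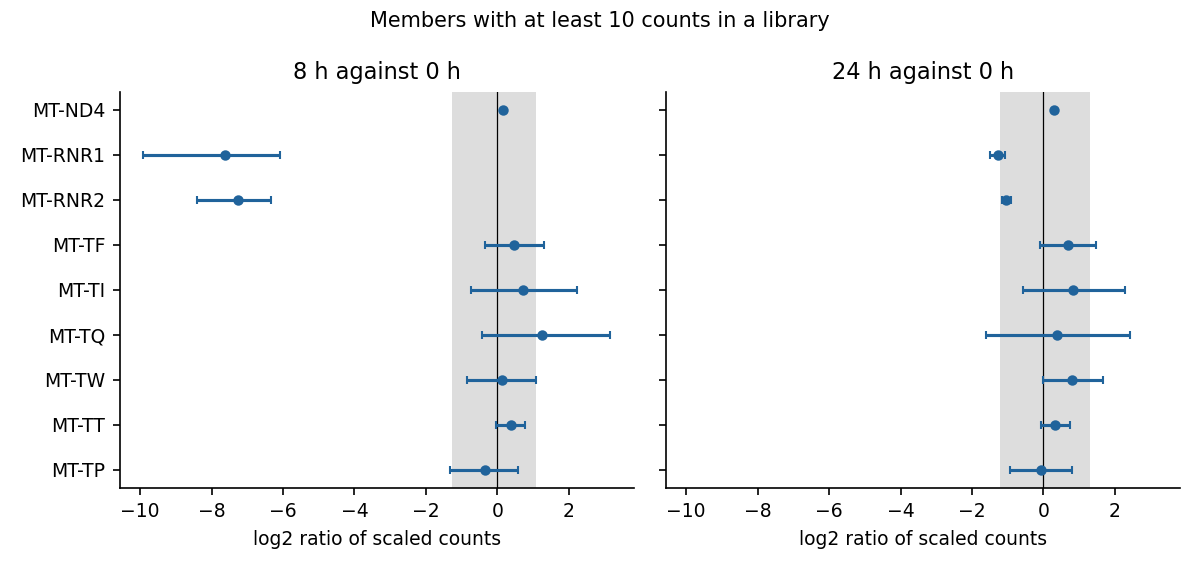
Log2 ratios of scaled counts at 8 h (left) and 24 h (right) against 0 h for the 9 genes that reached 10 counts in any library; bars are exact 95% counting intervals and the grey band spans the 5th to 95th percentile of all 9609 features. At 8 h the rRNAs stand at -7.63 and -7.27, and the other 7 genes have intervals that reach into the band.

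The nuclear genome holds old copies of mitochondrial DNA, and reads of near-identical copies can be split or dropped in counting. GENCODE v44 names 404 such pseudogene transcripts under the names searched. Of these, 28 had a count in any library and the highest single count was 9. Copies of the rRNA genes among the 404 numbered 0, so nuclear copies were not examined for the rRNAs. None of the 28 with a count is named for a tRNA gene, and copies of tRNA genes were not examined apart. The 35 copies of MT-ND4 held 5, 6 and 5 counts in order of time, beside 18898 counts or more of MT-ND4 itself. A block of 7 copies on chromosome 1 (chr1:629062-634922) had 0 counts in each library.

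The nuclear genes that supply the other respiratory chain subunits, and those for mitochondrial RNA synthesis and processing, could not be followed by name. Of 26 listed subunits, 4 (ATP5F1A, ATP5F1B, SDHA and UQCRC2) had a named row with at least 10 counts. Of 25 listed RNA factors, 0 had such a row. None of the named rows of either list is annotated as a coding transcript, so no comparison of nuclear with mitochondrial subunits was made. Over 7 marker genes of other cell types, the named rows summed to 1, 1 and 7 counts in order of time. None of these rows is annotated as a coding transcript either, so the sums do not show whether other cell types were present.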

How the data were processed

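THP-1 cells were profiled by RNA-seq before and after GSK-LSD1 treatment (0.2 µM; 0 h, 8 h and 24 h), with 1 library each. The authors mapped reads to hg38 through Seq2science, with STAR as default aligner, and fastp is named in the submitters' processing notes. The authors deposited unnormalized whole-number counts per feature. How reads were counted (tool, annotation, strand, shared reads) is not given in the sources used here.

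Names of transcript rows come from GENCODE v44, by identifier without its version. Coding genes were matched by accession as listed for this work, since the file does not pair accessions with names. Planned sums over 13 coding genes were replaced by MT-ND4, the coding gene analysed here. The hg38 sequences of all 37 genes equalled those of GENCODE v44.

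Library sizes were scaled by TMM (edgeR 4.0.16, R 4.3.3) on the 9609 features that reached 10 counts in any library. Ratios used no prior count, and a count at or under 3 stood at 3. Intervals of ratios are exact conditional (Clopper-Pearson) and of shares Wilson (scipy 1.17.1). Functions were tested on simulated data. Alternatives were DESeq2 1.42.0 size factors, total counts, other prior counts, filters, thresholds and denominators. All 37 genes were to be named, with nuclear copies of at least 10 counts, of which there were 0; the 4 subunits, CD33, PTPRC and the blocks of copies on chromosomes 1 and 9 were named after their values were seen. Members and lists were chosen with earlier results of these data known.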

Additional observations from a re-analysis of the deposited data

Results flagged for a closer look

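A block of 8 nuclear copies on chromosome 9 (chr9:5091093-5110762, hg38), outside the comparisons above, had more counts in the treated libraries than in the control. It held 12 counts in the untreated library, 30 in the 8 h library and 40 in the 24 h library. The log2 ratio was 1.58 at 8 h against 0 h (0.58 to 2.69) and 1.85 at 24 h (0.89 to 2.92), over 1 library each. The copies resemble MT-ND1, MT-CO1, MT-CO2, MT-ATP6, MT-CO3, MT-ND4, MT-ND5 and MT-ND6 and lie inside the span of JAK2 on the same strand. Its MT-ND4 copy, MTND4P14, had 5, 5 and 5 counts. The other 396 nuclear copies held 17, 15 and 17 counts. The block was picked out after its values were seen. Its intervals and its contrast with the other copies are therefore a description and not a test. The cause was not tested.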

How the results depend on the processing

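Of 105 alternative values, 89 stayed within the main interval or within 1.5 times the main number, 16 moved and 0 reversed. The log2 ratio of MT-ND4 at 8 h against 0 h was 0.068 with total counts and 0.067 with total counts without the 25 analysed genes. At 24 h against 0 h these values were 0.22 and 0.23. The size of the ratio but not its direction thus depended on the scaling. The other 12 coding genes were not taken out of the total, so it is not a total free of mitochondrial RNA. DESeq2 size factors and prior counts of 2 and 0.5 kept it within the interval. Of accession features alone, MT-ND4 took 1.49%, 1.55% and 1.74% of counts in order of time, by construction of the smaller total. At 8 h against 0 h, 0 genes were higher with a threshold of 2, with a prior count of 2 or with at least 50 counts, and 2 with a threshold of 0.5. At 24 h against 0 h, 3 were higher with a threshold of 0.5, 1 without a filter, and 0 were lower with a threshold of 2. At 24 h against 8 h, 4 were higher without a filter and 1 was lower with a threshold of 0.5. The calls added without a filter rest on MT-TL1 (2, 4 and 9 counts) and, against 8 h, also MT-TE (5, 3 and 7). Shares over all features were not computed at these settings, so these numbers cannot be set against a background. Beyond the settings themselves, the cause was not tested.

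Sums over the 13 coding genes, and those without the most counted gene or without MT-ND6, were not run, since MT-ND4 is the coding gene analysed here. No paired analysis was possible because each time point has 1 library. With 1 library each, intervals cover counting error alone, and tRNA counts under 10 are too few to show a change.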
